A study of Mus musculus with 31 samples.

Results

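The genes described here are 40 factors that build ribosomes in the nucleolus, chosen by gene symbol with earlier results of these data known. They comprise subunits of RNA polymerase I, proteins of the small nucleolar ribonucleoprotein particles (snoRNPs), processing factors of the small and the large ribosomal subunit, and abundant nucleolar proteins with several functions. A probe set of the Affymetrix Mouse Genome 430 2.0 array was assigned to a gene where the array annotation gave that symbol alone. By this rule 39 of the 40 genes had 80 probe sets among the 45037 of the array, and the remaining one, Mrto4, was represented only by a probe set shared with another gene and is named without a value. Where a gene had several probe sets, the brightest one was used.

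RNA polymerase I transcribes one long precursor that carries the RNA of both subunits. Box C/D and box H/ACA snoRNPs modify it, the first by methylating riboses and the second by converting uridine to pseudouridine, and large assemblies of processing factors fold and cut it into pre-40S and pre-60S particles. Myc, a transcription factor that binds the E-box, is widely known to activate genes of this machinery, and ribosome production is known to increase when epithelial cells grow and divide.

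The study profiled 31 samples on these arrays. Basal cells of the mammary epithelium, sorted as CD24+ and CD49f-high cells, came as 3 pools of K5creMycL/L mice, in which a Cre recombinase under the keratin 5 promoter deletes Myc in basal cells (Myc-deficient), and as 3 pools of control mice, each pool taken from several animals. Whole mammary tissue came from control mice (4 samples) and from K5ΔNβcat mice at successive stages, as small hyperplasias (5 samples), large hyperplasias (5 samples) and tumors (11 samples). K5ΔNβcat mice express a stabilized, N-terminally truncated β-catenin under the keratin 5 promoter, so that the transgene is active in the basal layer, and the labels name no Myc allele for them. The labels of the sorted cells name no β-catenin transgene. The labels give the strain C57BL6 for every sample, while the study's methods describe a mixed 129SV/C57BL6 background, and the ages of these mice are not given in the sources used here. RNA of sorted cells was amplified with a kit for very small inputs and tissue RNA was not, so the sorted cells and the tissues were never compared with each other. The labels do not say that tissue samples of a group came from separate animals, and p-values for tissue therefore measure the spread between samples.

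Values are MAS5 signals, a linear measure of probe set brightness that was scaled on each array to the same trimmed mean of 100, and signals below 30 were taken as background. The 45037 probe sets had a median signal of 15.0 to 19.8 on arrays of Myc-deficient pools, 13.2 to 18.8 on those of control pools and 23.9 to 32.9 on tissue arrays. Differences are given on the scale of log2(signal + 16), which understates changes of dim genes, and were tested with limma's moderated test across all probe sets whose median reached 30 in the brighter group. A gene was called when its p, adjusted over all these probe sets by the Benjamini-Hochberg method, was below 0.05. Markers of each cell type were summed per pool to compare the sorted groups list by list. The 12 basal markers summed to 29360 to 35760 in Myc-deficient and 27150 to 30130 in control pools, and the 13 luminal markers to 10070 to 10850 and 7627 to 11800. The 7 leukocyte markers summed to 677 to 1747 in Myc-deficient and 252 to 851 in control pools, with 4 of the 7 below 30 in every Myc-deficient pool and 3 of the 7 in every control pool, and Cd74, one of those above it, had 336 to 1320 in Myc-deficient pools, against 218 to 528 in control pools. The 7 endothelial markers summed to 77.3 to 724 in Myc-deficient and 139 to 488 in control pools. The 4 adipocyte markers summed to 1310 to 4250 and 1152 to 3427, most of it from Fabp4 (1287 to 4206 and 1142 to 3392). The part of these other cell types in the values was not tested.

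Myc itself was measured first. Its only probe set had signals of 141, 428 and 42.3 in Myc-deficient pools 1 to 3, against 1479, 1677 and 1869 in control pools 1 to 3. The pools did not overlap, and the log2 difference was -3.40 (SE 0.54), with an unadjusted p of 3.35e-05 and an adjusted p of 0.25 by limma. Where this probe set lies relative to the deleted part of the gene is not known here. Pool 2 of the Myc-deficient mice kept the most Myc signal. Without that pool the adjusted p was 0.006, and without Myc-deficient pool 3 it was 0.039.

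Nearly the whole set of nucleolar genes was dimmer in the Myc-deficient cells, although no single gene passed the threshold. The log2 difference was negative for 36 of the 39 genes, with a median of -0.66, while the median over all 19737 probe sets tested was -0.0027. The genes were chosen with earlier results of these data known, so their distance from the whole array is a description and not independent evidence. The 3 genes on the other side of 0 were Rrp9 (0.34), Npm1 (0.09) and Ddx10 (0.04). Among all probe sets tested, limma called 0% lower and 0% higher, and thus 0 of the 39 genes in either direction, and the study methods' t-test after the same adjustment called 0 as well. At an unadjusted p below 0.05, limma had 15 of the 39 genes lower and 0 higher, against 3.68% of all probe sets lower and 2.7% higher. The methods' t-test had 9 lower, and the share of all probe sets was not counted for it. For 15 genes every Myc-deficient pool was below every control pool, and for 0 genes the reverse held, where 6.32% of all probe sets were lower and 5.77% higher without overlap. Counted with 1 probe set per gene, as the 39 genes were, 7.18% of genes were lower and 5.75% higher without overlap. At an unadjusted p below 0.05 by limma, 4.53% of genes were lower and 2.69% higher.

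The same arrays were also read as numbered pairs of pools, which is no repeat of the result. The labels do not say what the numbers mark, and the pairing was inferred from the values. Pool 1 of the Myc-deficient mice was below pool 1 of the control mice for 34 of 39 genes (median log2 difference -0.55), pool 2 for 35 genes (-0.91) and pool 3 for 34 genes (-0.53), while about as many probe sets of the array were lower as higher in each pair (50.2%, 49.8% and 49.6% lower). In all 3 pairs 28 genes were lower and 0 were higher, where 17.2% of all probe sets were lower and 17.4% higher in all 3. With 1 probe set per gene these shares were 18.9% and 16.6%. Set against the mean of the control pools, the median gene stood at -0.63, -0.50 and -0.63 in Myc-deficient pools 1 to 3 and at -0.18, 0.23 and -0.02 in control pools 1 to 3, so the control pools varied more among themselves than the Myc-deficient pools did.

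**Figure D1:**
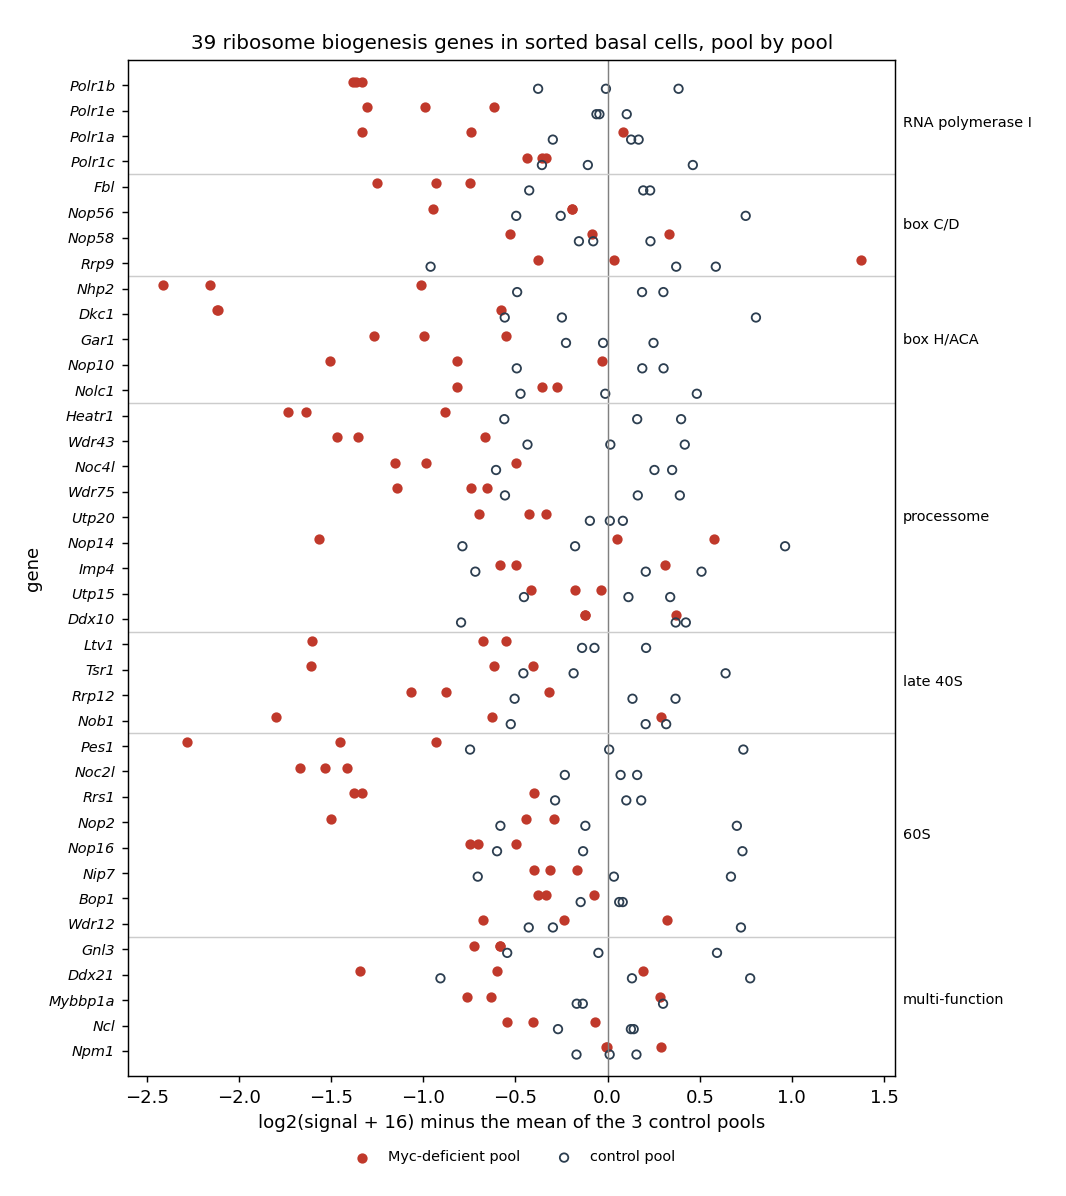
Each row is 1 of the 39 genes, ordered by role, and the x axis gives log2(signal + 16) minus the mean of the 3 control pools. Filled points are the 3 Myc-deficient pools and open circles the 3 control pools, and for 15 genes all filled points lie left of all open circles.

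Markers of dividing cells were lower in these pools as well, none of them past the threshold. Of 9 such genes, 8 had a negative log2 difference, with a median of -1.40 and 0 called. Mki67 ranged from 59.7 to 801 with a median of 136 in Myc-deficient pools, against 691 to 949 with a median of 702 in control pools, and Top2a from 11.2 to 81.1, against 123 to 278. The groups were separate for Top2a, Aurkb, Birc5, Mcm5 and Rrm2 and overlapped for Mki67, Cdc20, Mcm2 and Pcna. The summed signal of the 9 genes was 1979 to 3740 in Myc-deficient and 2993 to 4197 in control pools. Pcna, the brightest of them, had 1366 to 3243 and 1437 to 2160 and weighs most in these sums. The part of dividing cells in the lower signals of the nucleolar genes was not tested. Luminal markers were at a median log2 difference of -0.34 and basal markers at 0.17. In such pools, fewer cells that express a gene and less RNA of that gene per cell cannot be told apart.

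The E-box was looked for in the promoters of the nucleolar genes because most of them were dimmer in Myc-deficient cells. RefSeq promoter windows (build GRCm38.p6, from 250 bases before to 50 after the annotated start) matched 35 of the 40 genes by symbol. The canonical E-box CACGTG, which reads the same on both strands, was present in 8 of these 35 genes (22.9%), in 18 of 95 other ribosome biogenesis genes (18.9%) and in 2187 of 27025 genes in all (8.09%). The related hexamer CACGCG, searched also as its reverse complement CGCGTG, was present in 13 of the 35 (37.1%), 30 of the 95 other ribosome biogenesis genes (31.6%) and 10.5% of all genes. Pes1 and Mybbp1a held both hexamers. The genes in all were not limited to expressed genes or matched for base composition, so these shares are no measure of a link to Myc. By role, 0 of 4 RNA polymerase I genes, 0 of 3 box C/D and 0 of 5 box H/ACA genes held the E-box. So did 3 of 9 processome, 2 of 3 later small-subunit, 2 of 7 large-subunit and 1 of 4 abundant nucleolar genes. Of the 12 genes given in full below, 10 had a window. Nhp2, Gar1, Dkc1, Polr1b, Polr1e, Heatr1 and Noc2l held no E-box there. The 3 that held it were Pes1 (chr11:3963725-3964024, plus strand), Wdr43 (chr17:71615965-71616264, plus strand) and Ltv1 (chr10:13193088-13193387, minus strand). Their windows are shown 5′ to 3′ with the E-box in capitals, which in all 3 lies within the 50 bases after the annotated start.
Pes1: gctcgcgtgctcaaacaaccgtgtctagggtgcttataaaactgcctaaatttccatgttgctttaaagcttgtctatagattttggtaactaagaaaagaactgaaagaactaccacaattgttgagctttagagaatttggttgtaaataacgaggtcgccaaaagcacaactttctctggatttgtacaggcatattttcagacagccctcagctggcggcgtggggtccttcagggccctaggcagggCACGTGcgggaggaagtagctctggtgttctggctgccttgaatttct
Wdr43: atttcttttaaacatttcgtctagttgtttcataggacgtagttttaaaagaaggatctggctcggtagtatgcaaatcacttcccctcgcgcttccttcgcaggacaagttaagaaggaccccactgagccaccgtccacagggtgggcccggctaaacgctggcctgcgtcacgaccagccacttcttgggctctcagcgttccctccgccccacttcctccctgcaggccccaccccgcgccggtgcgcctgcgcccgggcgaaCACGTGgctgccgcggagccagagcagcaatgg
Ltv1: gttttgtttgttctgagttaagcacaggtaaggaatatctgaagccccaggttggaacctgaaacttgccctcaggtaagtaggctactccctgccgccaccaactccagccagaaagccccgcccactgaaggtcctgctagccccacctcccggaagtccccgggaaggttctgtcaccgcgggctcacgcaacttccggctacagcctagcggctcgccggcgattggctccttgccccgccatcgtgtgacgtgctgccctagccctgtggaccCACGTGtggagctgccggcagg
A match is a description of the letters and not evidence of binding. Whether genes with a match differed more in Myc-deficient cells was not tested.

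All 4 RNA polymerase I genes were lower in the Myc-deficient cells in each of the 3 pairs (median log2 difference -0.82), as were 17.2% of all probe sets. Polr1b, the second-largest subunit, had signals of 15.2, 14.5 and 14.1 in Myc-deficient pools 1 to 3, against 86.4, 62.0 and 44.4 in control pools 1 to 3. All Myc-deficient pools were thus under the background level of 30 and all control pools above it, so that Polr1b was at least 2.065-fold lower (log2 difference -1.36, SE 0.41, unadjusted p = 0.00575, adjusted p = 0.62 by limma). Polr1e, another subunit, had 22.6, 15.1 and 34.0, against 66.4, 58.4 and 57.5 in the control pools, again without overlap (-0.97, SE 0.41, adjusted p = 0.76 by limma). The largest subunit Polr1a (-0.66) and Polr1c, which also serves RNA polymerase III (-0.37), overlapped between the groups.

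The box H/ACA proteins were lower in all 3 pairs in 5 of 5 cases, and 3 of them did not overlap (17.2% and 6.32% of all probe sets). Nhp2, a core protein of these particles, had signals of 206, 170 and 474 in Myc-deficient pools 1 to 3, against 687, 1109 and 1203 in control pools 1 to 3. Its log2 difference of -1.86 (SE 0.38) was the largest among the 39 genes, with an unadjusted p of 0.000319 and an adjusted p of 0.42 by limma. Without Myc-deficient pool 3 its adjusted p was 0.039, and Nhp2 was then the one nucleolar gene called. Nhp2 is also on a list that the study chose on these arrays, so its direction is not independent evidence. A second probe set of Nhp2 gave -1.34.

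Gar1, another core protein, had 699, 845 and 1157, against 1454, 2027 and 1674 in the control pools, with every Myc-deficient pool below every control pool (-0.94, SE 0.26, unadjusted p = 0.00294, adjusted p = 0.56 by limma). Dkc1, the pseudouridine synthase of the particle, had 56.0, 192 and 55.5, against 246, 195 and 528. Its pools did not overlap, but only just, since Myc-deficient pool 2 and control pool 2 were nearly equal (-1.60, SE 0.49, adjusted p = 0.62 by limma). Both further probe sets of Dkc1 were negative as well (-1.06 and -1.24). Nop10 (-0.79) and the snoRNP chaperone Nolc1 (-0.48) were lower in each pair with overlapping groups.

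Of the box C/D proteins only Fbl separated the groups. Fbl, the methyltransferase fibrillarin, had signals of 404, 506 and 579 in Myc-deficient pools, against 726, 1124 and 1154 in control pools (log2 difference -0.98, SE 0.28, unadjusted p = 0.00434, adjusted p = 0.59 by limma), and its second probe set gave -1.05. The other core proteins were closer to 0, Nop56 at -0.44 and Nop58 at -0.09. Rrp9, a protein of the U3 particle, was dim, with 28.5, 43.4 and 134 in Myc-deficient and 13.8, 71.0 and 59.0 in control pools, and its groups overlapped widely.

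Among 9 factors of the small-subunit processome, which assembles on the nascent precursor, 8 had a negative difference and 4 did not overlap. Over all probe sets 6.32% were lower without overlap. Heatr1 had signals of 113, 55.5 and 60.6 in Myc-deficient pools, against 250, 298 and 146 in control pools (log2 difference -1.42, SE 0.41, unadjusted p = 0.00411, adjusted p = 0.59 by limma). Its 2 other probe sets gave -0.63 and -1.17. Wdr43 had 245, 405 and 225, against 477, 876 and 658 (-1.16, SE 0.33, unadjusted p = 0.00409, adjusted p = 0.59 by limma). Wdr75 (-0.85) and Utp20 (-0.49) separated the groups by smaller margins. Noc4l had a larger difference than either (-0.88), but its Myc-deficient pool 2 was above its control pool 1. The helicase Ddx10 was at 0.04, and Nop14, Imp4 and Utp15 lay between -0.31 and -0.21.

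The 4 factors that act later on the small subunit were all negative, between -0.94 for Ltv1 and -0.71 for Nob1, the nuclease that makes the final cut of the small-subunit RNA. Ltv1, an assembly factor known from yeast, had 156, 142 and 66.8 in Myc-deficient pools, against 275, 213 and 224 in control pools, without overlap (SE 0.38, adjusted p = 0.75 by limma). Tsr1 (-0.88), Rrp12 (-0.75) and Nob1 overlapped. Nob1 and Rrp12 were dim, mainly in the Myc-deficient pools. Nob1 had 4.00 to 68.8 with a median of 29.0 there, against 32.3 to 70.6 with a median of 64.2 in control pools. Rrp12 had 18.9 to 42.6 with a median of 23.7, against 35.5 to 78.3 with a median of 64.2.

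The large-subunit factors were negative in 8 of 8 genes, 3 of them without overlap (6.32% of all probe sets). Noc2l, whose yeast counterpart acts on early pre-60S particles, had signals of 184, 223 and 204 in Myc-deficient pools, against 525, 694 and 652 in control pools. The spread within each group was small beside this difference (-1.54, SE 0.29), and Noc2l had the smallest unadjusted p of the 39 genes (0.000149, adjusted p = 0.29 by limma). A dimmer probe set of Noc2l gave -0.26 (unadjusted p = 0.685), so the size of the difference rests on the brighter one.

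Pes1, which forms a pre-60S complex with Bop1 and Wdr12, had signals of 118, 36.5 and 77.5 in Myc-deficient pools, against 410, 241 and 136 in control pools (log2 difference -1.55, SE 0.47, adjusted p = 0.62 by limma). Its partners differed less, Bop1 at -0.26 and Wdr12 at -0.20, and both overlapped. Rrs1, which helps to place the 5S RNA, had 472, 915 and 458, against 993, 1379 and 1303 (-1.04, SE 0.30, adjusted p = 0.60 by limma), and its second probe set gave -1.63. Nop2 (-0.75), Nop16 (-0.65) and Nip7 (-0.29) overlapped.

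The 5 abundant nucleolar proteins had a median of -0.37, and 4 of them were negative. Npm1, nucleophosmin, had signals of 6125, 7517 and 6099 in Myc-deficient pools, against 5464, 6850 and 6192 in control pools, and the groups overlapped (log2 difference 0.09, SE 0.17, adjusted p = 0.94 by limma). Nucleolin, Ncl, had 2013, 2810 and 2225, against 2444, 3220 and 3254 (-0.34, SE 0.21). Gnl3, nucleostemin, was the one gene of this role without overlap (-0.63), and the helicase Ddx21 (-0.58) and Mybbp1a (-0.37) overlapped. Probe sets of Npm1, Ncl and Ddx10 disagreed in sign, whereas those of 21 of the 24 genes with several tested probe sets shared 1 sign. Of the 39 probe sets used in sorted cells, 10 carry the array suffixes for probes that can match transcripts of more than 1 gene (7 of type s and 3 of type x), among them those of Nhp2, Gar1, Dkc1, Fbl, Rrs1 and Polr1e.

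Other ribosome biogenesis genes had a median log2 difference of -0.41. This list of 120 names, of which 119 had a probe set, was also chosen with earlier results of these data known. Of the 119, 102 were negative, 29 were lower and 3 higher without overlap, and 0 were called by limma, with 21 lower and 1 higher at an unadjusted p below 0.05 (over all probe sets 6.32% were lower without overlap and 3.68% lower at that p). The 3 with the smallest p were Ruvbl1, an ATPase of snoRNP assembly (-1.18), the helicase Ddx18 (-1.24) and Pwp2 (-1.45), each with an adjusted p of 0.59 by limma. Ruvbl1 had signals of 111, 132 and 154 in Myc-deficient pools, against 243, 317 and 415 in control pools. Ddx18 had 284, 116 and 157, against 408, 375 and 529, and the groups of all 3 genes were separate.

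In tissue the same genes were brighter in K5ΔNβcat lesions than in control glands. The median log2 difference of the 39 genes from control tissue was 0.22 in small hyperplasias, 0.37 in large hyperplasias and 0.51 in tumors, beside medians of -0.0004, 0.06 and -0.03 over all probe sets tested. Array by array, the median gene stood between -0.05 and 0.10 in control samples, 0.09 and 0.37 in small hyperplasias, 0.32 and 0.38 in large hyperplasias and 0.23 and 0.70 in tumors. The 5 large hyperplasias lay close together (SD 0.02), while the tumors were spread (SD 0.14) and tumor 11 was lower than every large hyperplasia.

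**Figure D2:**
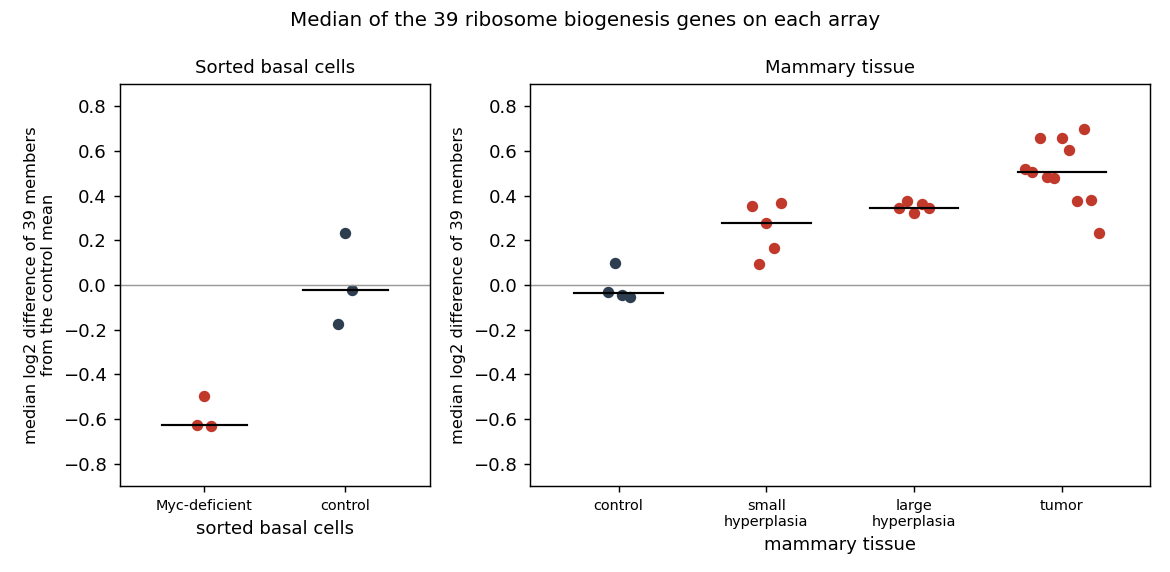
Each point is 1 array, and the y axis gives the median over the 39 genes of the log2 difference from the mean of the control arrays of the same kind, with a line at the group's median. In sorted cells the Myc-deficient pools lie between -0.63 and -0.50, below every control pool, and in tissue the large hyperplasias and tumors lie above every control sample.

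Markers of other cell types differed between the same tissues. All 9 markers of dividing cells rose in each lesion group, and their summed signal spanned 1033 to 1385 (control tissue), 1843 to 3093 (small hyperplasias), 2870 to 4015 (large hyperplasias) and 3685 to 5142 (tumors). The 4 adipocyte markers ran the other way, with 32390 to 36700, 16970 to 23400, 14130 to 18110 and 635 to 6105 in the same order, and leukocyte markers were highest in large hyperplasias (12680 to 15560, against 5437 to 7232 in control tissue). The 7 endothelial markers summed to 1637 to 1923, 927 to 1424, 637 to 865 and 581 to 1087 in that order, and 5 of them fell in small hyperplasias and all 7 in large hyperplasias and in tumors. Of 13 luminal markers 1 fell and 2 rose in small hyperplasias, 2 fell and 2 rose in large hyperplasias, and 6 fell and 1 rose in tumors. Of 12 basal markers 3 fell and 6 rose in small hyperplasias, 5 fell and 6 rose in large hyperplasias, and 5 fell and 7 rose in tumors. Against the background level of 30, 1 adipocyte marker was below it in every tumor and 1 marker of dividing cells in every control sample. What these shifts contribute to the nucleolar genes was not tested. Myc rose in each lesion group, by 0.67 in small hyperplasias, 0.59 in large hyperplasias and 0.61 in tumors on the log2 scale (adjusted p = 0.016, 0.024 and 0.0043 by limma).

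Against control tissue, 30 of the 39 genes rose in tumors and 2 fell, where 33.2% of all probe sets were called higher and 35.9% lower. In large hyperplasias 20 rose and 1 fell of 38 tested, where 25.6% of probe sets were called higher and 20.1% lower. In small hyperplasias 17 rose and 1 fell of 38 tested, beside 16.8% higher and 14.4% lower. Counted with 1 probe set per gene, as the 39 genes were, 35%, 26.8% and 19.3% of genes were higher in tumors, large hyperplasias and small hyperplasias. The shares lower were 36.8%, 22.9% and 15.3%. Rrp12 stayed under the filter in both hyperplasia groups and passed it in tumors only through the tumors, where it was brighter. The comparisons share the 4 control samples. Of 27 genes with several tested probe sets, 2 in tumors, 2 in large hyperplasias and 8 in small hyperplasias had probe sets that disagreed in sign. The balance of calls over the whole array depended on the scaling for large hyperplasias, with 6155 probe sets higher and 4822 lower as deposited but 4837 higher and 5962 lower after scaling to the upper quartile.

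**Figure D3:**
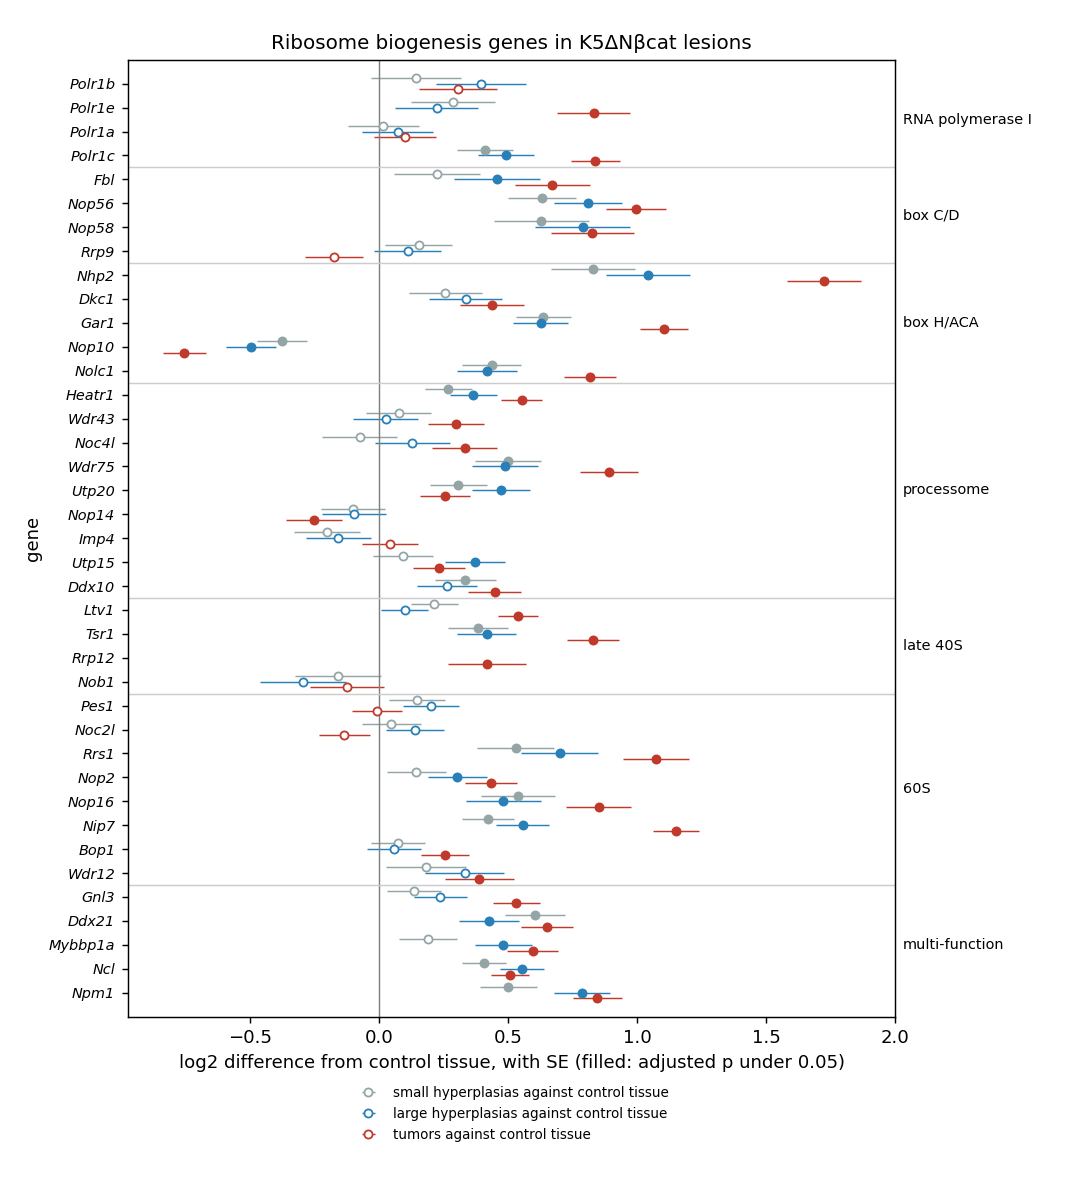
Rows are the 39 genes in order of role, and the x axis gives the log2 difference from control tissue with its SE for small hyperplasias, large hyperplasias and tumors, filled where the adjusted p was below 0.05. Most points lie right of 0 and furthest right in tumors, while Nop10 lies left of 0 in all 3 groups.

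The box H/ACA proteins held the largest rise among the 39 genes and the one gene called lower in all 3 lesion groups. Nhp2 had signals of 324, 347, 272 and 249 in control samples 1 to 4, 592, 397, 602, 487 and 644 in small hyperplasias 1 to 5, 478, 623, 652, 689 and 718 in large hyperplasias 1 to 5, and 717 to 1493 with a median of 1015 in the 11 tumors. Every lesion exceeded every control sample. The log2 difference from control was 0.83 (SE 0.16) in small hyperplasias, 1.04 (SE 0.16) in large hyperplasias and 1.72 (SE 0.14) in tumors, with adjusted p = 0.00044, 1.2e-05 and 7.6e-11 by limma. Gar1 rose by 0.64, 0.63 and 1.10 in the same groups and Nolc1 by 0.44, 0.42 and 0.82. Dkc1 rose in tumors (0.44, adjusted p = 0.0031 by limma) and was called in neither hyperplasia group (0.26 and 0.34), while tumors set against large hyperplasias gave 0.10 (adjusted p = 0.47 by limma).

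Nop10, the smallest core protein of the same particle, fell in every lesion group. Its signals were 1774, 1798, 1784 and 1622 in control samples, 1352, 1173, 1303, 1331 and 1569 in small hyperplasias, 1128, 1094, 1239, 1381 and 1341 in large hyperplasias, and 863 to 1274 with a median of 1037 in tumors, and no lesion reached the lowest control sample. The log2 difference from control was -0.38 (SE 0.10), -0.50 (SE 0.10) and -0.75 (SE 0.08) in small hyperplasias, large hyperplasias and tumors, with adjusted p = 0.0042, 0.00016 and 1.5e-08 by limma. A second, dimmer probe set of Nop10 gave 0.09, -0.13 and -0.09 and was called in none of the 3 comparisons, so the fall rests on 1 of 2 probe sets.

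**Figure D4:**
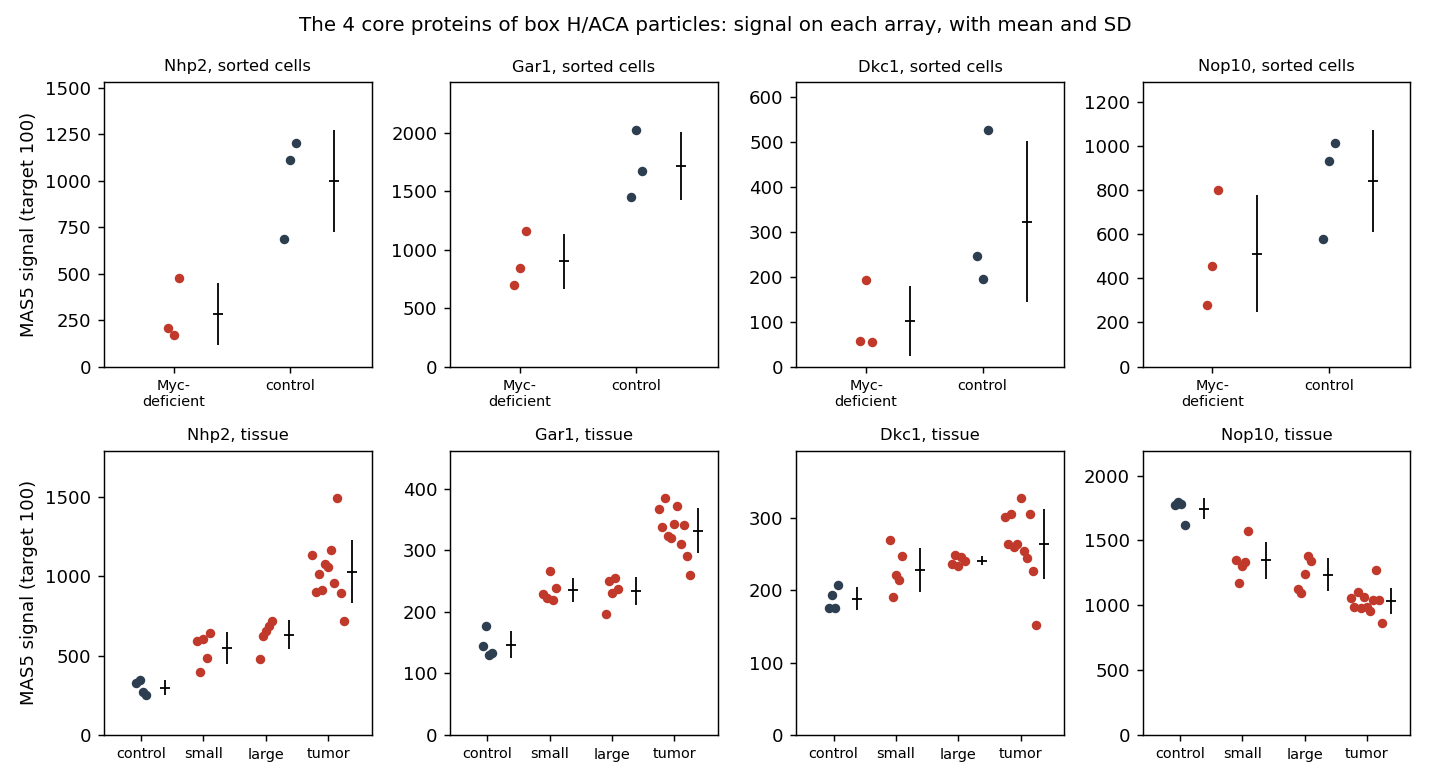
Each point is the MAS5 signal of Nhp2, Gar1, Dkc1 or Nop10 on 1 array, with the mean and SD of each group beside it, for sorted cells in the upper row and tissue in the lower row. In sorted cells all 4 genes average lower in Myc-deficient pools, whereas in tissue Nop10 averages 1031 in tumors and 1744 in control samples while the other 3 genes are higher in tumors.

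Box C/D proteins rose in both groups of larger lesions. Nop56, a scaffold of these particles, had signals of 244, 245, 259, 284 and 265 in large hyperplasias and of 215 to 383 with a median of 294 in tumors, against 142, 130, 165 and 131 in control samples, with no overlap. It rose by 0.81 (SE 0.13, adjusted p = 2.2e-05 by limma) in large hyperplasias and by 1.00 (SE 0.12, adjusted p = 3.4e-08 by limma) in tumors. Its partners Nop58 (0.79 and 0.83) and Fbl (0.46 and 0.67) rose in both, whereas Rrp9 was called in neither (0.11 and -0.17).

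For RNA polymerase I, Polr1c had the smallest p in both groups. Its signals were 215, 234, 235, 272 and 323 in large hyperplasias and 293 to 350 with a median of 326 in tumors, against 133, 202, 219 and 161 in control samples, so that 1 large hyperplasia lay within the range of the control samples and no tumor did. It rose by 0.49 (SE 0.11, adjusted p = 0.00068 by limma) and by 0.84 (SE 0.10, adjusted p = 2.5e-08 by limma). Polr1e rose in tumors (0.83), and Polr1a and Polr1b were called in neither group.

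Of the 9 processome factors, 4 rose in large hyperplasias and 7 in tumors, beside 25.6% and 33.2% of all probe sets. Utp20 had the smallest p in large hyperplasias, where its signals were 147, 126, 136, 124 and 146, against 83.0, 98.3, 97.0 and 94.7 in control samples (0.47, SE 0.11, adjusted p = 0.0011 by limma). In tumors the smallest p was that of Wdr75, with signals of 163 to 242 and a median of 209, against 93.3, 118, 111 and 96.4 in control samples (0.89, SE 0.11, adjusted p = 1.2e-07 by limma). Nop14 was the one factor of this role that fell in tumors, with 60.1 to 102 and a median of 70.9, against 77.6 to 110 and a median of 87.3 in control samples. These groups overlapped, and the call (-0.25, SE 0.11, adjusted p = 0.041 by limma) was lost without any one of tumors 2, 4, 5, 6, 7, 10 and 11 or control samples 1 and 2, the adjusted p reaching 0.21 without control sample 2.

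Among the later small-subunit factors Tsr1 led both comparisons, with signals of 305, 287, 276, 276 and 287 in large hyperplasias and of 288 to 532 with a median of 394 in tumors, against 214, 227, 205 and 197 in control samples. It rose by 0.42 (SE 0.12, adjusted p = 0.0045 by limma) and 0.83 (SE 0.10, adjusted p = 7.1e-08 by limma) without overlap. Ltv1 and Rrp12 rose in tumors (0.54 and 0.42), and Nob1 was called in no lesion group. Rrp12 was near background, with a median of 36.4 in tumors against 26.6 in control samples, so it was tested only because of the tumors.

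Nip7, which acts in pre-60S maturation, had the smallest p of all 39 genes in tumors. Its signals were 185, 229, 182, 206 and 226 in large hyperplasias and 277 to 386 with a median of 319 in tumors, against 116, 146, 158 and 120 in control samples, and the 3 groups did not overlap. It rose by 0.56 (SE 0.10, adjusted p = 8.6e-05 by limma) in large hyperplasias and by 1.15 (SE 0.09, adjusted p = 2.2e-11 by limma) in tumors. Rrs1 rose by 0.70 and 1.07, Nop16 by 0.48 and 0.85 and Nop2 by 0.30 and 0.43. Pes1 (0.20 and -0.01) and Noc2l (0.14 and -0.13), which differed most among large-subunit genes in the sorted cells, were called in neither.

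The abundant nucleolar proteins rose in tumors in 5 of 5 cases and in large hyperplasias in 4, beside 33.2% and 25.6% of all probe sets. Npm1 had signals of 2096, 2510, 2723, 3007 and 3330 in large hyperplasias and of 2329 to 3434 with a median of 2810 in tumors, against 1366, 1658, 1706 and 1534 in control samples. It rose by 0.79 (SE 0.11, adjusted p = 2.6e-06 by limma) and 0.85 (SE 0.10, adjusted p = 2.2e-08 by limma) with no overlap. Ncl rose by 0.56 and 0.51, and Gnl3 rose in tumors (0.53) but was not called in large hyperplasias (0.24).

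Tumors were also set against large hyperplasias directly. Of the 39 genes 16 were higher in tumors and 5 lower, where 21% of all probe sets were called higher and 32.9% lower, and the median was 0.19 beside -0.09 over all probe sets. Nip7 rose by 0.59 (SE 0.08, adjusted p = 1.9e-06 by limma), Nhp2 by 0.68 (SE 0.13, adjusted p = 0.00013 by limma) and Polr1e by 0.61 (SE 0.13, adjusted p = 0.00041 by limma). Nop10, Noc2l, Rrp9, Utp20 and Pes1 were the 5 that fell, by 0.26, 0.27, 0.28, 0.22 and 0.21 on the log2 scale. Noc2l had 66.3 to 101 with a median of 85.9 in tumors, against 132, 101, 118, 90.1 and 92.2 in large hyperplasias, and the groups overlapped. Probe sets disagreed in sign for 13 of the 27 genes with several tested, so many of these differences depend on the probe set used. Without large hyperplasia 1 the count of genes lower was 1. After scaling to the upper quartile 0 of these 5 remained called, and after quantile normalization 2 of the 39 genes were lower, the signs being unchanged. Over the array that scaling gave 6436 probe sets higher and 5909 lower, against 4979 and 7821 as deposited, and it moved the median of all probe sets to 0.01.

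The other ribosome biogenesis genes were counted in tissue as well. Of 119 genes 61 rose and 15 fell in tumors, 37 rose and 7 fell in large hyperplasias, and 22 rose and 4 fell in small hyperplasias, all against control tissue, with median log2 differences of 0.23, 0.19 and 0.11. Over all probe sets 33.2%, 25.6% and 16.8% were called higher in these 3 comparisons, and 35.9%, 20.1% and 14.4% lower, so the count in small hyperplasias was near the share over the array.

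The genes lower without Myc and those higher in lesions were compared as lists. Under the calls used here 0 genes were both lower in Myc-deficient cells and higher in large hyperplasias, since 0 were called in sorted cells. Of the 15 genes whose Myc-deficient and control pools did not overlap, a criterion chosen after the values were seen, 7 rose in large hyperplasias (46.7% of the 15 and 35% of the 20 that rose), beside 20 of the 38 genes tested there. The 7 were Fbl, Nhp2, Gar1, Utp20, Wdr75, Heatr1 and Rrs1, and their share of the 15 was no larger than that of the genes as a whole. In tumors 12 of the 15 rose (80% of the 15 and 40% of the 30), beside 30 of the 39 genes as a whole. Polr1b, Pes1 and Noc2l were lower without Myc and rose in neither.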

How the data were processed

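Mammary tissue (25 samples) and sorted basal cells (6 pools) were hybridized to Affymetrix Mouse Genome 430 2.0 arrays. The authors computed MAS5 intensities with Affymetrix Expression Console (version not given in the sources used here) and deposited these linear signal intensities, scaled to a target of 100 (trimmed means of 99.96 to 99.98 per array), after labelling tissue RNA with a one-cycle kit and amplifying RNA of sorted cells with a NuGEN kit. From these values, 64 control probe sets were left out, and log2(signal + 16) was fitted with limma 3.58.1 in R 4.3.3, separately for tissue and sorted cells, with lmFit, contrasts and eBayes with a trend. Probe sets with a median of at least 30 in the brighter group were tested, p-values were adjusted over all of them by the Benjamini-Hochberg method, and the scripts were tested on simulated data. The number of arrays limits the precision. Genes came from the array annotation: 34945 probe sets have 1 symbol, 932 several and 9160 none. The members and lists were chosen with earlier results of these data known.

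Genes given in full were, in sorted cells, every gene called and then those with the largest difference whose pools did not overlap, up to 12, and in tissue the gene with the smallest p in each role and those called against the majority. Results were recomputed with signals floored at 30 or logged without the offset, with a filter on the mean or none, with quantile and upper-quartile scaling, the replicate number as a block, other choices of probe set, the methods' unequal-variance test and fold rule, the compared groups alone, and each sample left out. In sorted cells, deviations from the group means correlated between pools of the same number (0.23, 0.23 and 0.26) and not between others (-0.19 to -0.04), so the numbers, which the labels give without saying what they mark, were taken to pair the pools. Centring each group makes the other correlations negative where those of the same number are positive, so the contrast is partly built in. The main fit did not use the pairs, and its p-values for sorted cells ignore them. Only the replicate block used them.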

Additional observations from a re-analysis of the deposited data

Results flagged for a closer look

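Of 42 group-by-gene checks for a sample far from the others, made in the 3 tissue groups of 4 or 5 samples, 2 were positive, and chance flags about 1 in 20 such groups. In control tissue, Nop10 had a signal of 1622 in sample 4, while the other control samples lay between 1774 and 1798. The median of the 39 genes in control tissue was 0.10 (0.097) in sample 2 on the log2 scale, while the other control samples lay between -0.05 and -0.03.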

How the results depend on the processing

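None of the medians of the 39 genes, of Myc and of the genes given in full changed sign under the alternatives, but in large hyperplasias the genes below 0 were 9 after quantile normalization and 8 after upper-quartile scaling, against 5, and after the latter the balance of calls over the array turned there (4837 higher, 5962 lower) and in tumors against large hyperplasias (6436 higher, 5909 lower). In sorted cells the count of genes called lower was 0 under every planned setting except the methods' rule, and 0 to 1 with single pools left out (1 without Myc-deficient pool 3, also for genes lower without Myc and higher in large hyperplasias, which was 0 otherwise apart from that rule). With the replicate block it was 0 as well, with 20 genes lower at an unadjusted p below 0.05 and a smallest adjusted p of 0.0853 over the array. The share of all probe sets below that p was not counted with the block, so the 20 cannot be set against it. The methods' rule, a median of at least 30 and a median ratio over 2 with no test, gave 15 genes lower, 23 other ribosome biogenesis genes lower and 1 higher (over all 19737 probe sets 1684 lower and 1441 higher), Myc at -3.57, and 1 gene lower without Myc and higher in large hyperplasias. The count whose pools did not overlap, an alternative chosen after seeing the data, was 15 to 21 with single pools left out. Groups that are separate stay separate with fewer pools, so on the same probe sets this count could not fall. Its range is therefore no check of the count. With single pools left out, Myc was -4.14 to -2.67, and the median -0.81 to -0.53.

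In tumors against control tissue, the genes called lower were 1 without a filter, under both scalings, with the replicate block, with the methods' t-test and with only the compared groups, and 5 with the probe set of smallest p. In tumors against large hyperplasias they were 3 without a filter and with the mean over probe sets, 2 after quantile normalization, 0 after upper-quartile scaling and 1 with the replicate block, where other ribosome biogenesis genes lower were 6. In tissue the numbers did not pair the samples. The methods' rule gave, for tumors, large hyperplasias and small hyperplasias against control tissue, 7, 1 and 0 genes higher and 0 lower in each, with 6, 1 and 1 other genes higher and 1, 0 and 0 lower (over all probe sets 3563 of 24086, 2494 of 24001 and 1530 of 23489 higher, and 3874, 1710 and 771 lower), and 0 in every count for tumors against large hyperplasias (over all 23747 probe sets 1229 higher and 2255 lower). After upper-quartile scaling the other genes higher were 22 in large and 12 in small hyperplasias (7 lower), and 51 higher and 5 lower in tumors against large hyperplasias. The methods' t-test gave 19 other genes higher in large hyperplasias, 7 in small hyperplasias and 10 of the 39 genes higher there. In small hyperplasias only the compared groups left 8 other genes higher, and the mean over probe sets 0 of the 39 genes and 2 others lower. The median was 0.28 in large hyperplasias after quantile normalization and 0.27 after upper-quartile scaling, and 0.30 for tumors against large hyperplasias after the latter. With the probe set of smallest p it was -0.83 in sorted cells, 0.63 in tumors, 0.43 in large and 0.39 in small hyperplasias, and 20 other genes were lower in tumors against large hyperplasias.

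With single samples left out, the genes lower were 1 to 2 in tumors and in small hyperplasias (2 without small hyperplasia 5), and 1 to 5 in tumors against large hyperplasias (1 without large hyperplasia 1, and 3 without large hyperplasia 3 or 4 or without tumor 4, 7, 8 or 11). Other genes lower were 4 to 7 in large hyperplasias (4 without large hyperplasia 2 or 3) and 3 to 8 in small hyperplasias (8 without small hyperplasia 5), and other genes higher there 13 to 27 (13 without control sample 1). The causes of these shifts were not tested. Signals below 30, as those of Polr1b in Myc-deficient pools, give only a bound.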
